A study of Mus musculus with 6 samples.

Results

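Toll-like receptors are germline-encoded receptors that recognise conserved microbial molecules and, for some of them, nucleic acids. Their transcripts were examined here in regulatory T (Treg) cells, a CD4 T cell lineage that depends on the transcription factor Foxp3 and limits the responses of other immune cells. The gene set held 10 of the 19752 genes measured: the receptors Tlr7, Tlr8, Tlr9, Tlr3, Tlr1, Tlr6, Tlr2 and Tlr4, the transport protein gene Unc93b1 and the adaptor gene Myd88. It was assembled by name around Tlr7, which had been picked because its level differed between the tissues compared here, so the differences of the 10 genes between these tissues are given as a description and without a test. Each of the 10 genes had 1 probe set of its own.

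The samples were 3 arrays of Treg cells from the pancreas and 3 arrays of Treg cells from the spleen of 10-week-old female prediabetic NOD mice, a strain that develops autoimmune diabetes. All mice had the genetic background given as NOD NRB_SFB+ and carried the Foxp3-ires-gfp reporter, which marks cells that transcribe Foxp3 with green fluorescent protein. Cells were sorted as DAPI-negative CD45+ TCRb+ CD4+ GFP+ cells, and their RNA was amplified before hybridisation to Affymetrix Mouse Gene 1.0 ST arrays. The labels give no treatment for either group and do not say whether arrays came from single mice or pools, so the spread between arrays may be technical.

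The endosomal receptors bind nucleic acids: Tlr7 and Tlr8 are single-stranded RNA sensors, Tlr9 senses unmethylated CpG DNA and Tlr3 double-stranded RNA. They need the membrane protein Unc93b1 to leave the endoplasmic reticulum. Tlr1 and Tlr6 each pair with Tlr2 at the cell surface to recognise bacterial lipopeptides, and Tlr4 recognises lipopolysaccharide. All of these receptors except Tlr3 signal through the adaptor Myd88 to IRAK kinases, Traf6 and the NF-kB transcription factors. They are best known from B cells, dendritic cells and macrophages, and their transcripts have also been found in Treg cells.

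Values are log2 intensities. The background level was an intensity of 63.9, or 5.997 on this scale, set as the 95th percentile of the mean value of 1194 olfactory and vomeronasal receptor genes, which T cells are not known to use. Of the 10 genes, 7 were above this level on every array, and Tlr3, Tlr4 and Tlr8 were below it on every array. Of the genes of the sorted identity, Foxp3 had a mean of 11.48 in pancreas and 11.52 in spleen, and Cd4 of 11.33 and 11.42. These levels do not show that the samples were pure. The pancreatic enzyme genes Ctrb1 and Cpa1 had means of 11.98 and 11.84 in pancreas, against 7.41 and 7.51 in spleen. The interquartile range of the log2 values ran from 2.23 on pancreas array 3 to 3.07 on pancreas array 1, so the arrays differed in the width of their distributions.

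Tlr7 had the widest separation of the 10 genes. It was at 6.98, 6.86 and 6.49 on the pancreas arrays, against 8.16, 8.16 and 8.10 on the spleen arrays. The spleen arrays lay close together, the pancreas arrays were all lower, and the nearest arrays of the tissues were 1.12 apart. The means were 6.78 ± 0.26 in pancreas and 8.14 ± 0.036 in spleen (SD, n = 3 each), a log2 difference of -1.36 ± 0.18 (SE of the fit), or 2.57-fold lower in pancreas. The pancreas arrays still lay above background, by 0.78 on average, so the transcript was measured in both tissues. The pancreas values were close to background, however, which limits how well the fold is measured. In bulk samples such as these, fewer cells with the transcript and less transcript per cell cannot be told apart. With 1 array left out, the difference ran from -1.46 to -1.22, and it was -1.37 with the arrays scaled to 1 width.

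**Figure D1:**
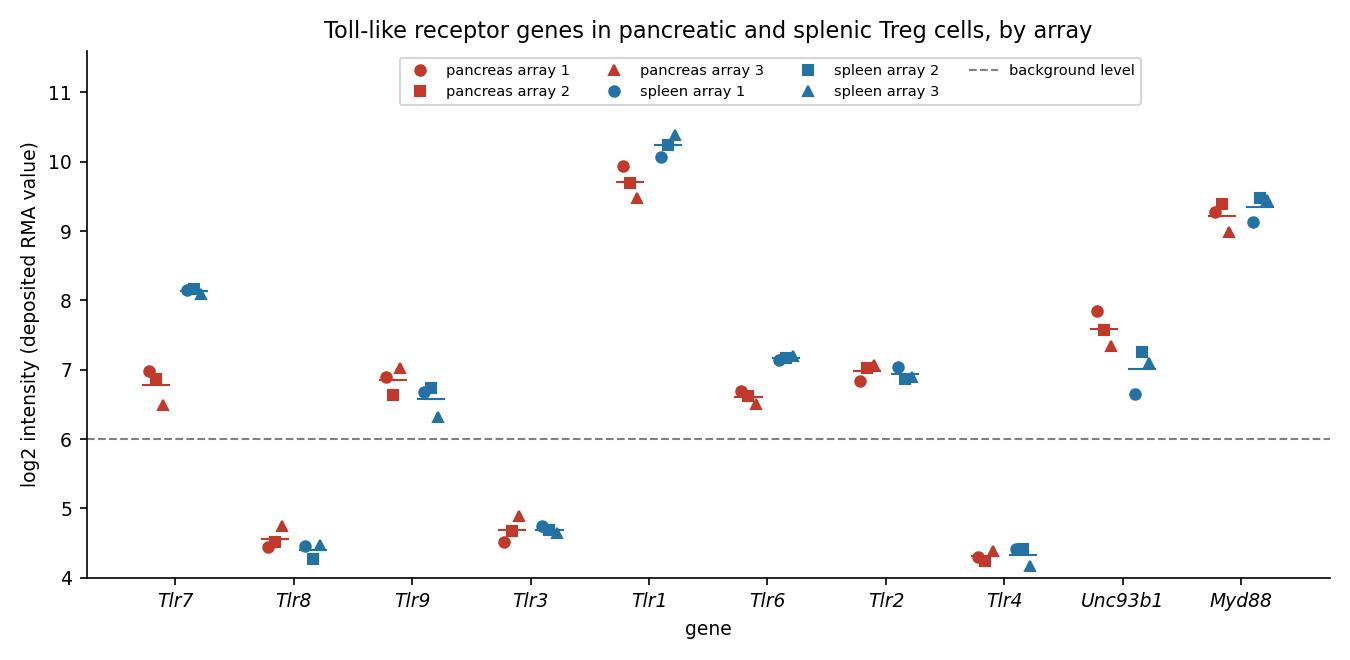
The log2 intensity of each of the 10 genes (x axis) on the 3 pancreas arrays (red, left) and the 3 spleen arrays (blue, right), with the mean of each tissue as a line and the background level dashed. Tlr7, Tlr1 and Tlr6 are lower on all pancreas arrays than on any spleen array, Unc93b1 is higher, and Tlr3, Tlr4 and Tlr8 lie below background; heights of different genes come from different probes and are not comparable.

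The Tlr7 gene lies on chromosome X at 167303380 to 167330574 (GRCm38.p6, RefSeq), 39050 bases from Tlr8, its closest relative in function. Tlr8 was at 4.44, 4.51 and 4.75 on the pancreas arrays and at 4.46, 4.27 and 4.47 on the spleen arrays, with every value below background. Prps2, a phosphoribosyl pyrophosphate synthetase gene that is the nearest measured gene on the other side of Tlr7, had a log2 difference of -0.33 ± 0.19 (SE) and did not pass the test (adjusted p = 0.930, limma with Benjamini-Hochberg adjustment over 19752 genes). Next outward, Tmsb4x, which encodes the actin-binding peptide thymosin beta 4, had a difference of -0.03 ± 0.16 (adjusted p = 1.00), and Frmpd4, which lay below background on every array, one of -0.11 ± 0.18 (adjusted p = 1.00). None of these 3 tested neighbours passed the threshold of 0.05. The difference at Tlr7 was the largest of the 5 genes at this locus, but Tlr7 had been picked for its difference. Tlr8 and Frmpd4 lay below background, so a difference in them was not detectable.

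The remaining nucleic acid sensors did not separate the tissues. Tlr9 was at 6.90, 6.64 and 7.02 in pancreas and at 6.68, 6.74 and 6.32 in spleen. The tissues overlapped, all values were close to background, and the log2 difference was 0.28 ± 0.18 (SE). It was 0.042 with array weights, so its size depended on how the arrays were weighted. Tlr3 was at 4.51, 4.68 and 4.89 in pancreas and at 4.75, 4.69 and 4.64 in spleen, below background on all 6 arrays. Neither Tlr3 nor Tlr8 was thus measured above background in either tissue, and a difference in these genes was not detectable.

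Among the surface receptors, Tlr1 and Tlr6 were lower in pancreas, by less than Tlr7. Tlr1 was at 9.94, 9.69 and 9.47 on the pancreas arrays, against 10.07, 10.24 and 10.39 on the spleen arrays, with a log2 difference of -0.53 ± 0.18 (SE) and a gap of 0.13 between the nearest arrays. Tlr6 was at 6.69, 6.62 and 6.50 in pancreas, against 7.15, 7.17 and 7.19 in spleen, with a difference of -0.56 ± 0.15 and a gap of 0.45. The tissues overlapped for neither gene. With 1 array left out, the difference ran from -0.65 to -0.42 for Tlr1 and from -0.61 to -0.51 for Tlr6. Scaling the arrays to 1 width took Tlr1 to -0.38 and left Tlr6 at -0.57.

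Tlr1 and Tlr6 are neighbours on chromosome 5, at 64924680 to 64933600 and 64953092 to 64970942, with 19491 bases between them, and encode closely related proteins. The sequence around a transcription start is shown for both, the neighbouring pair that was lower together with Tlr7, and for Tlr2, the partner of each, whose level overlapped between tissues. Each sequence runs from 250 bases before to 50 bases after an annotated start (RefSeq, GRCm38.p6, minus strand), in the direction of transcription, and is the first of the starts listed for its gene. They span chr5:64933509-64933808 for Tlr1, chr5:64959117-64959416 for Tlr6 and chr3:83841559-83841858 for Tlr2. Capitals mark letters that match any of 8 motifs searched on both strands.
Tlr1: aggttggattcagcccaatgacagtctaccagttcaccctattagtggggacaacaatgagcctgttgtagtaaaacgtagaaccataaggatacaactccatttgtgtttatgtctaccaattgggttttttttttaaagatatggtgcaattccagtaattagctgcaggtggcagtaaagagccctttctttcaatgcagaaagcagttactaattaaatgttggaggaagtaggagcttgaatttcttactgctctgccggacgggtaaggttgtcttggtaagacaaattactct
Tlr6: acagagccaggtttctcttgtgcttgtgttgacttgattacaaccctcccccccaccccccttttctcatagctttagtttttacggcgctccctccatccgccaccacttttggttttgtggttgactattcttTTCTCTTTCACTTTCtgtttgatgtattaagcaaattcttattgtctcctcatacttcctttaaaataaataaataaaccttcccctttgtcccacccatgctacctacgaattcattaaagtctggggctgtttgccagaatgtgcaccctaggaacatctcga
Tlr2: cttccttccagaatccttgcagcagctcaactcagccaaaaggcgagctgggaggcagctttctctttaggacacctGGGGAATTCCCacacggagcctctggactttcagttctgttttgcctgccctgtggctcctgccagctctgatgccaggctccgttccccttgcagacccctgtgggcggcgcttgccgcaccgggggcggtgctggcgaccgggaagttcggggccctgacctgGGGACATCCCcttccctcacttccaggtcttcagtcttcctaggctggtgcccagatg
The motifs were TGANTCA (AP-1), CCGGAAGT (ETS), GAAANNGAA (the core of the interferon-stimulated response element), the kappa B consensus of NF-kB, ATGCAAAT (octamer), CAGCTG (E-box), CTTTGAT (TCF/LEF) and GTAAACA (FOXO). The Tlr1 window held no match to any of the 8. The Tlr6 window held 2 overlapping matches to the interferon-response core, read on the opposite strand, a motif found in 8.56% of 32851 promoter windows of the same length. The Tlr2 window held 3 matches to kappa B, 2 of them overlapping, a motif found in 8.46% of windows. The windows of Tlr1 and Tlr6 thus shared no motif among those searched. The second start listed for each of Tlr1 and Tlr6 held no match. The Tlr6 windows lie within the span of the gene, and the upstream end of that span, at 64970942, was not searched. Of the other genes of the set, Myd88 and Tlr8 also held the interferon-response core, Tlr3 held kappa B, and Tlr9 held the octamer (1.74% of windows) and the AP-1 motif (7.81%). The promoters of Tlr7, Tlr4 and Unc93b1 were not searched. A match is a run of letters and does not show that a factor binds there.

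Tlr2, the partner of both Tlr1 and Tlr6, did not separate the tissues. It was at 6.84, 7.02 and 7.07 in pancreas and at 7.05, 6.86 and 6.90 in spleen, a log2 difference of 0.04 ± 0.16 (SE). Tlr4, the lipopolysaccharide receptor, was at 4.30, 4.24 and 4.39 in pancreas and at 4.41, 4.41 and 4.17 in spleen, below background throughout. The lower values of Tlr1 and Tlr6 in pancreas therefore stood beside an overlapping level of their shared partner. Of the other mouse receptors, Tlr12 and Tlr13 had a probe set of their own and were below background on every array, and Tlr5 and Tlr11 were not analysed here.

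Unc93b1, which carries the nucleic acid sensors to endosomes, was higher in pancreas. It was at 7.85, 7.58 and 7.34 on the pancreas arrays, against 6.66, 7.26 and 7.10 on the spleen arrays, a log2 difference of 0.58 ± 0.21 (SE). The tissues did not overlap, but the nearest arrays were only 0.085 apart, and spleen array 1 was well below the other spleen arrays. Without spleen array 1 the difference was 0.41. Its direction was opposite to that of Tlr7, one of the receptors it transports.

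Myd88 was at 9.27, 9.40 and 8.98 in pancreas and at 9.12, 9.48 and 9.45 in spleen. The tissues overlapped, with a log2 difference of -0.13 ± 0.18 (SE), and of -0.0038 with the arrays scaled to 1 width. The shared adaptor of these receptors was thus at overlapping levels in both tissues.

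**Figure D2:**
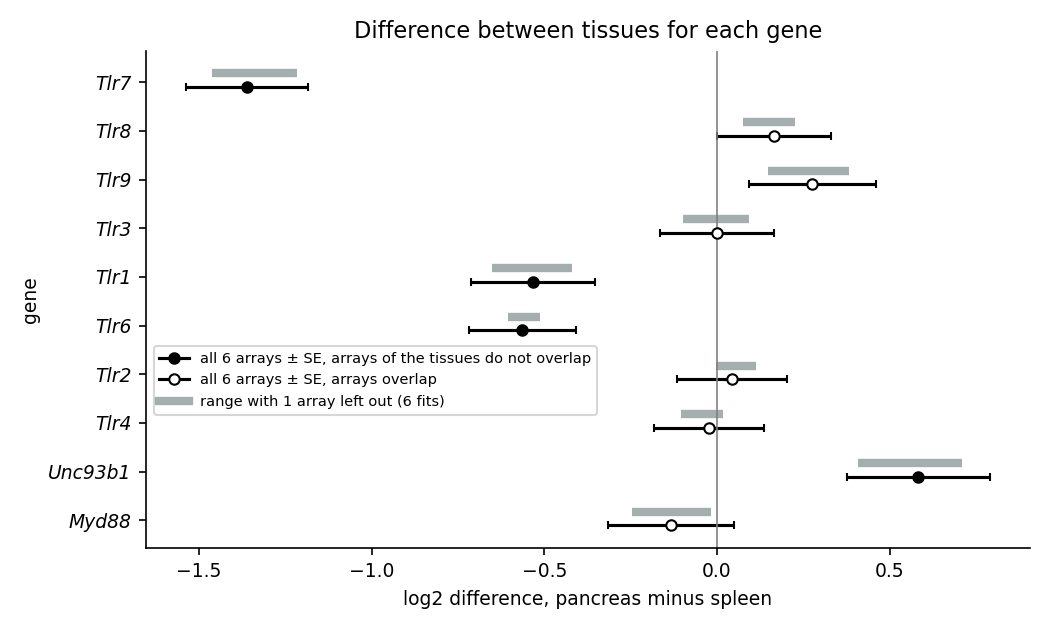
The log2 difference between pancreas and spleen (x axis) for each of the 10 genes (y axis), with the standard error of the fit; filled points are genes whose tissues do not overlap, and grey bars give the range over the 6 fits with 1 array left out. Tlr7 stands at -1.36, Tlr1 and Tlr6 near -0.5, Unc93b1 at 0.58, and the other 6 within 0.28 of 0.

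Over the whole set, 4 of 10 genes had tissues that did not overlap, against 10.4% of all 19752 genes. Of the 4, 3 were lower in pancreas, against 5.81% of all genes, and 1 was higher, against 4.57%. In the fit over all genes, 1 of the 10, Tlr7, had an adjusted p under 0.05, against 0.678% of all genes. Nothing is read from these counts, because the same contrast had been used to choose Tlr7. The median difference of the 10 genes was -0.011, and that of all genes was -0.00091.

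The 10 genes also varied between arrays of 1 tissue. Pancreas array 3, the array with the narrowest distribution, held the lowest value of Tlr7, Tlr1, Tlr6 and Myd88, and the highest value of Tlr2, Tlr3, Tlr8 and Tlr9. Without it, the difference was -1.22 for Tlr7, -0.42 for Tlr1, -0.51 for Tlr6 and 0.71 for Unc93b1. The part of array width in the order of the pancreas arrays was not tested.

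Across the 6 arrays, the gene of the set that followed Tlr7 most closely was Tlr6, with a Pearson r of 0.997, and Tlr1 had an r of 0.915. Since the values fall into 2 tissues, such an r mainly carries the difference between them, and after each tissue's mean was subtracted it was 0.925 for Tlr6 and 0.713 for Tlr1. It was also -0.907 for Tlr3 and -0.860 for Tlr8, both below background on every array, and ran from -0.616 (Tlr2) to 0.588 (Myd88) for the other 5. Among 9831 other genes above background on all arrays, the 5 most like Tlr7 were Ndrg3 (0.999), Zfp128 (0.996), Mob3b (0.995), Mettl8 (0.995) and Adh1 (0.995). Adh1, an alcohol dehydrogenase gene, was at 6.82, 6.69 and 6.53 in pancreas, against 7.66, 7.65 and 7.73 in spleen, and passed the test (log2 difference -0.999 ± 0.16 SE, adjusted p = 0.0207). That call was lost without pancreas array 2 and without each of the spleen arrays (adjusted p up to 0.105). Ndrg3 had a difference of -0.54 (adjusted p = 0.235), and neither it nor Zfp128, Mob3b or Mettl8 passed. All 5 were chosen for following Tlr7 across both tissues. Their tests on the same contrast are therefore not independent of that choice, and nothing is read from them. After the tissue means were subtracted, the 5 genes most like Tlr7 were Serf1 (0.998), Rdh13 (0.998), the cell cycle phosphatase gene Cdc25a (0.996), Prmt9 (0.996) and Slfn3 (0.995). These are descriptions over 6 arrays, which share their amplification and differ in width, and high values of r are common among so many genes.

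The genes around the receptors were followed in 9 lists of 98 measured genes that exclude the 10. Of these, 4 were higher in pancreas at an adjusted p under 0.05 and 0 were lower, against 0.547% higher and 0.132% lower among all genes. All 4 belonged to the regulators and targets, namely Tnfaip3, Il10, Ccl3 and Ccl5. At this threshold, 0 of 15 genes of folding, transport and processing, 0 of 17 adaptors and kinases and 0 of 9 transcription factors passed in either direction (limma). At an unadjusted p under 0.05 there were 2, 1 and 1 such genes in these lists, and 15 of the 98 genes over all lists, 13 higher in pancreas and 2 lower, against 6.84% of all genes, 3.2% higher and 3.64% lower. Without pancreas array 1 or spleen array 2 the count of 4 was 2, and without pancreas array 3 it was 6. The median difference over the 98 genes was 0.016. The lists were chosen with earlier results of these data known, so nothing is read from these counts.

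The adaptors and kinases had a median difference of -0.14, with 12 of 17 means lower in pancreas. Traf6, the ubiquitin ligase downstream of Myd88, was at 8.91, 8.91 and 8.03 in pancreas, against 8.91, 8.94 and 9.09 in spleen (adjusted p = 1.00). Its lower mean rested on pancreas array 3, and the pancreas arrays 1 and 2 lay next to the spleen arrays. Ikbke, the IKK-related kinase gene, had a difference of -0.44 ± 0.28 (SE, adjusted p = 1.00), and Pik3ap1, an adaptor that links these receptors to phosphoinositide 3-kinase, one of 0.47 ± 0.17 (adjusted p = 0.525). Among the transcription factors, Rel had a difference of -0.40 ± 0.16 (adjusted p = 0.602), Nfkb2 of 0.51 ± 0.25 (adjusted p = 0.823) and Irf3 of -0.17 ± 0.18 (adjusted p = 1.00).

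Of the endosomal genes, Ifi30, a lysosomal thiol reductase, was at 8.93, 8.85 and 8.69 in pancreas, against 7.67, 8.17 and 7.98 in spleen. The tissues did not overlap, but the difference of 0.88 ± 0.18 (SE) missed the threshold (adjusted p = 0.0648), which it passed without pancreas array 3 (adjusted p = 0.0225). Hsp90b1, the chaperone gp96 that folds most Toll-like receptors, had a difference of 0.42 ± 0.20 (adjusted p = 0.816), and the lysosomal protease gene Ctsb one of 0.45 ± 0.17 (adjusted p = 0.551). Pld4, a nuclease of endosomes that degrades single-stranded nucleic acids, was at 6.94, 6.28 and 7.18 in pancreas, against 5.75, 5.71 and 5.75 in spleen. All 3 spleen arrays were below background, and the pancreas mean of Pld4 was 1.74-fold the background level. The test of Pld4 missed the threshold (adjusted p = 0.0753). Without pancreas array 2 its adjusted p was 0.0250. The related nuclease Pld3 had a difference of 0.18 ± 0.21 (adjusted p = 1.00), and the lysosomal nucleoside transporter gene Slc29a3 one of -0.14 ± 0.16 (adjusted p = 1.00).

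Among the surface co-receptors, Ly86 and Cd180, which form a receptor complex of B cells related to Tlr4, had the largest differences, and neither passed the test. Ly86 was at 8.42, 6.98 and 9.13 in pancreas, against 6.82, 6.62 and 5.99 in spleen (log2 difference 1.70 ± 0.45 SE, adjusted p = 0.172). Cd180 was at 7.67, 6.24 and 7.43 in pancreas, against 5.73, 6.41 and 5.82 in spleen (1.13 ± 0.34, adjusted p = 0.286). In both, pancreas arrays 1 and 3 were high and pancreas array 2 was near the spleen arrays. Without pancreas array 2, both passed, with an adjusted p of 0.0094 for Ly86 and 0.0331 for Cd180. Ly96, the partner of Tlr4 also known as MD-2, had a difference of -0.13 ± 0.24 (adjusted p = 1.00), and Cd14 was below background on every array.

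Markers of other cells were read on the same arrays. Of 11 measured B cell markers, 1, Cd79a, passed the test, against 0.547% of all genes that passed higher in pancreas. All 11 had a higher mean in pancreas, and 6 did not overlap and were higher there, against 4.57% of all genes. At an unadjusted limma p under 0.05, 9 of the 11 were higher and 0 lower, against 3.2% and 3.64% of all genes. The call of Cd79a (adjusted p = 0.0482) was kept in 2 of 6 fits with an array left out, those without pancreas arrays 2 or 3. The summed intensity of the 11 markers was 1884, 1107 and 2543 on pancreas arrays 1 to 3, against 878, 968 and 830 on the spleen arrays. The highest sum stood on pancreas array 3, which also had the highest Ly86 and Pld4. Cd180 was highest on pancreas array 1, and Unc93b1 was at 7.85, 7.58 and 7.34, lowest of the pancreas arrays on array 3. Ms4a1, the gene of CD20, was at 7.998, 6.32 and 8.26 in pancreas and below background on all spleen arrays. Tlr7, which B cells are also known to express, was at 6.98, 6.86 and 6.49 on pancreas arrays 1 to 3. On the spleen arrays Tlr7 was at 8.16, 8.16 and 8.10. The part of B cell RNA in the values of Ly86, Cd180, Pld4, Unc93b1 and Tlr7 was not tested.

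**Figure D3:**
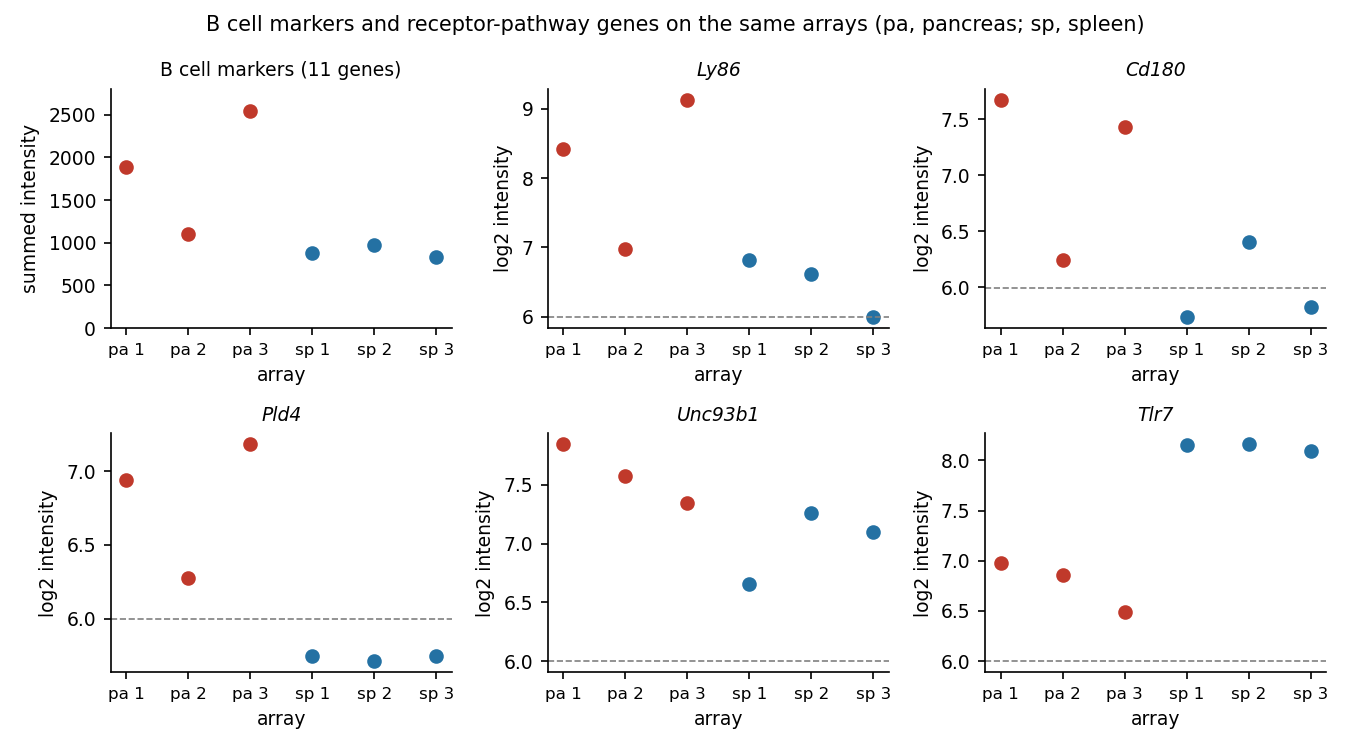
The summed intensity of 11 B cell markers (upper left, from 0) and the log2 intensity of Ly86, Cd180, Pld4, Unc93b1 and Tlr7 on each array (red, pancreas; blue, spleen), with the background level dashed. Ly86, Cd180 and Pld4 are high on pancreas arrays 1 and 3, as are the B cell markers. Unc93b1 falls from pancreas array 1 to pancreas array 3, and Tlr7 is lower on all pancreas arrays than on any spleen array.

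Of 13 macrophage and monocyte markers, 1, the lysozyme gene Lyz2, passed the test, 4 were higher at an unadjusted limma p under 0.05, and 6 were below background on every array, among them Adgre1 (F4/80) and Csf1r. Their summed intensity ran from 1641 to 1838 in pancreas, against 1108 to 1228 in spleen. Within that sum, Ccr2 had intensities of 753, 707 and 516 in pancreas, against 369, 381 and 369 in spleen. Of the 13 means, 9 were higher in pancreas and 4 lower. Of 7 plasmacytoid dendritic cell markers, 0 passed (3 at an unadjusted limma p under 0.05), and their sum ran from 974 to 1074 in pancreas, against 962 to 1177 in spleen. These cells are known for high Tlr7 and Tlr9. Of their 7 markers, 4 had a higher mean in pancreas and 3 a lower one. Spib, below background on all spleen arrays, had a log2 difference of 0.94 ± 0.23 (SE, adjusted p = 0.141). Tcf4 had one of 0.41 ± 0.17 (adjusted p = 0.646) and Ccr9 one of -0.48 ± 0.21 (adjusted p = 0.682). Siglech lay near background, at 6.39, 6.07 and 6.36 in pancreas and at 6.34, 5.87 and 5.83 in spleen. The conventional dendritic cell markers (sum of 441 to 600 in pancreas, against 359 to 414 in spleen) had 0 of 8 genes past the test, 1 at an unadjusted limma p under 0.05, and 5 of 8 below background. Within that sum, Cd209a had intensities of 169, 77 and 241 in pancreas, against 65, 52 and 50 in spleen. Of the 8 means, 6 were higher in pancreas and 2 lower. The sum of the 8 neutrophil markers ran from 386 to 412 in pancreas, against 308 to 334 in spleen. Only 1 of them, Mmp9, had a tissue mean above background. Its intensities were 214, 216 and 157 in pancreas, against 84, 127 and 124 in spleen. Of the 8 neutrophil markers, 5 had a higher mean in pancreas and 3 a lower one. The sum of the 8 NK and CD8 T cell markers ran from 667 to 824 in pancreas, against 629 to 722 in spleen. Neither list had a gene past the test, and each had 2 at an unadjusted limma p under 0.05. Acinar markers, the enzymes of pancreatic juice, were far higher in pancreas, with a sum of 12224 to 24999 against 915 to 2423 in spleen, and 9 of 10 passed. The 9 sorting and T cell identity genes had a median difference of -0.06, with 0 past the test and 0 at an unadjusted limma p under 0.05. The part of these other cells in the values of Tlr7, Tlr1 and Tlr6 was not tested.

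The regulators and targets held the 4 genes past the test. Tnfaip3, which encodes A20, the enzyme that ends signalling from these receptors to NF-kB, was at 11.22, 10.58 and 10.45 in pancreas, against 9.25, 9.73 and 9.46 in spleen. The tissues did not overlap, with a log2 difference of 1.27 ± 0.23 (SE, adjusted p = 0.0355). With 1 array left out this call was kept in 1 of 6 fits, the one without pancreas array 3, and the adjusted p reached 0.107 without spleen array 1. The inhibitor gene Nfkbia had a difference of 0.25 ± 0.17 (adjusted p = 1.00) and Tnip1, which encodes a partner of A20, one of -0.39 ± 0.22 (adjusted p = 0.936). Among 14 target cytokine and chemokine genes, 3 passed, all of which other stimuli are known to induce as well. At an unadjusted limma p under 0.05, 5 of the 14 were higher in pancreas and 0 lower, against 3.2% and 3.64% of all genes. Il10 was at 9.07 ± 0.17 in pancreas, against 5.62 ± 0.45 in spleen (SD, n = 3 each, adjusted p = 7.7e-05). All its spleen arrays were below background, and its pancreas mean was 8.41-fold the background level. Ccl3 was at 8.78 ± 0.23 in pancreas, against 5.87 ± 0.21 in spleen (adjusted p = 7.7e-05), and Ccl5 at 11.06 ± 0.19, against 8.99 ± 0.73 (adjusted p = 0.0141), a call kept in 3 of 6 fits with an array left out. Of the remaining targets, 5 were below background on every array, including Il6 and Ifnb1.

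Sensors outside the family showed no gene past the test, with 0 of 16 in either direction (limma), 1 at an unadjusted p under 0.05, and a median difference of -0.020. Nod1, a cytosolic sensor of bacterial peptidoglycan, was at 7.89, 7.64 and 6.80 in pancreas, against 8.23, 8.12 and 8.69 in spleen. The tissues did not overlap, and the difference of -0.90 ± 0.27 (SE) did not pass (adjusted p = 0.299). Ddx58, which encodes the cytosolic RNA sensor RIG-I, had a difference of -0.35 ± 0.17 (adjusted p = 0.818). Zcchc3 was below background on all 3 pancreas arrays and on 2 of 3 spleen arrays, so the size of its difference was not measured (adjusted p = 0.733). Nod1 and Ddx58 were thus in the same direction as Tlr7 by their means, without passing the test.

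**Figure D4:**
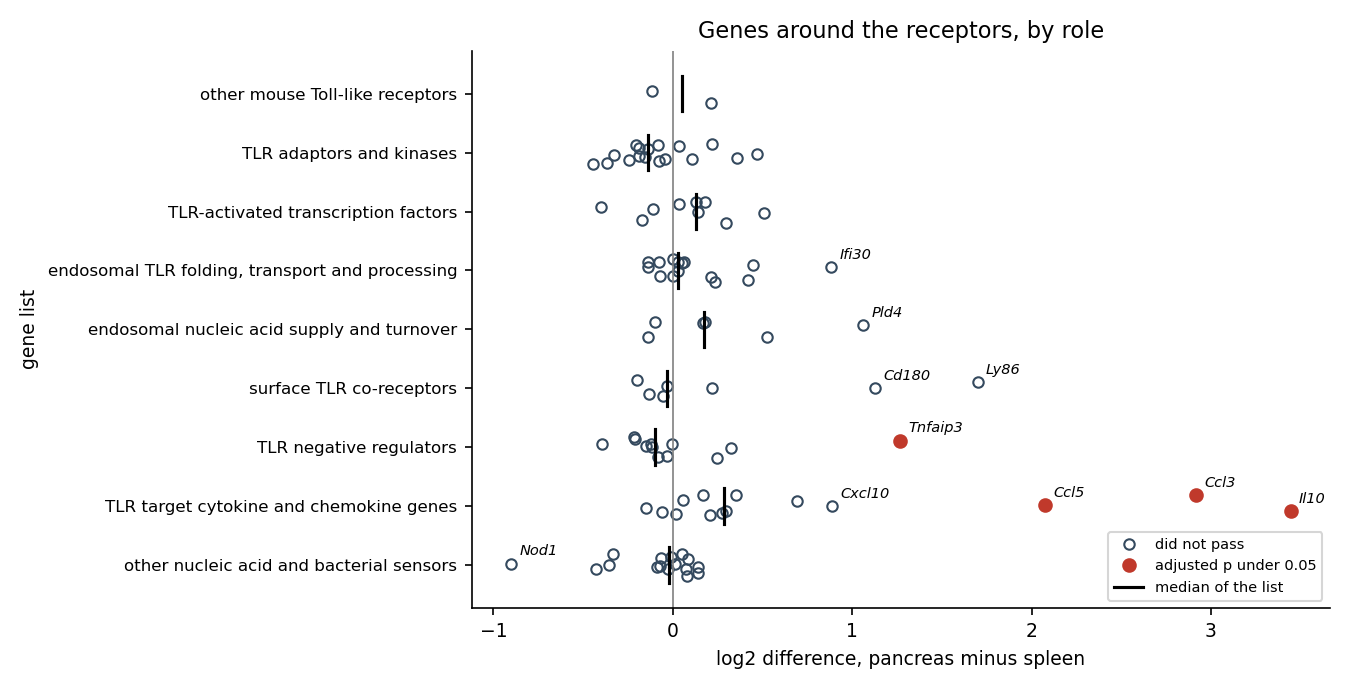
The log2 difference between pancreas and spleen (x axis) for 98 genes around the receptors, grouped by role (y axis), with a vertical bar at the median of each list. Red points are the 4 genes with an adjusted p under 0.05 (Tnfaip3, Ccl5, Ccl3 and Il10); open points did not pass, and most lie within 0.5 of 0.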

How the data were processed

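The authors deposited 1 linear intensity per probe set and array, and the submitters' processing notes name RMA and Affymetrix Power Tools. The values were taken to log2 with no further normalization. No source used here says how the arrays were brought to a common scale. Of 24922 probe sets, 21425 name exactly 1 gene in the platform annotation and were used, and for 921 genes with several, the probe set with the highest mean was kept, which left 19752 genes. Gene positions are those of RefSeq, GRCm38.p6, and were not used to place probes.

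Pancreas was compared with spleen by limma (version 3.58.1, R 4.3.3; lmFit and eBayes, two-sided, no covariates) with p-values adjusted by Benjamini-Hochberg across the 19752 genes, and 0.05 as the threshold. The fit was also run on simulated arrays with known changes. Recovery was partial for the smaller of these changes, so a gene that did not pass may still differ between the tissues. Figures were drawn with matplotlib 3.10.9. The number of arrays limits the precision.

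The members and lists were chosen with earlier results of these data known. Beside the 10 genes, the rule named up to 3 genes above background with the smallest p of each pathway list, up to 3 marker genes with the largest difference of each list of other cells, the 5 genes most like Tlr7 over 6 arrays, before and after subtracting tissue means, the 2 nearest measured genes on each side of Tlr7, and Foxp3, Ptprc and Cd4. Of the list members, 9 of 107 had no probe set of their own and are not analysed here. Genes named outside the rule, chosen after their values were seen, are Cd14, Siglech, Adgre1, Csf1r, Il6, Ifnb1, Tlr12 and Tlr13. Replicate numbers were tried as a block. Alternatives covered normalization, background, dim genes, probe sets, variance, array weights, marker genes and each array left out.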

Additional observations from a re-analysis of the deposited data

How the results depend on the processing

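The difference of Tlr7 ran from -1.46 to -1.22 with 1 array left out and from -1.37 to -1.31 under the 10 other alternatives. Tlr1 and Tlr6 stayed below 0 and Unc93b1 above 0 in all 16 fits. The count of all genes past the threshold, 134, was 64 with each array centred on its median, 66 with arrays also scaled to 1 width, 212 with quantile normalization, 3 with values under background set to it and 1684 with array weights. It ran from 64 to 262 with 1 array left out. Array weights were estimated gene by gene, chosen after the default method did not converge. It was 64 without spleen array 1, 66 without pancreas array 2 and 262 without pancreas array 3. The count of pathway genes, 4, was 2 with median centring, 2 with width scaling, 1 with values set to background and 14 with array weights, and ran from 2 to 6 with 1 array left out. The cause of these moves was not tested. Over 384 refits of the 24 named pathway genes, 350 kept direction and side of the threshold, 15 lost a call, 17 gained one, 8 of these under array weights, and 2 turned. Calls of Tnfaip3 and Ccl5 ended under median centring (adjusted p = 0.117 and 0.0657), width scaling (0.0596 and 0.0501) and values set to background (0.451 and 0.440), the last of which also ended that of Ccl3 (0.0616). With 1 array left out the difference of Pld3 ran from -0.054, without spleen array 1, to 0.32, and that of Ly96 from -0.42 to 0.046, its highest value without spleen array 2, none of them past the test.

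Replicate numbers are shared between the tissues, and the labels do not say whether they mark shared mice or days. Same-numbered arrays did not deviate together (r of -0.184, 0.054 and -0.627 over genes above background). Deviations from a mean of 3 arrays that differ in width cannot show whether the numbers pair the samples. With the replicate number as a block 132 genes passed, with a gain of Ly86 (adjusted p = 0.0441) and a loss of Adh1 (0.0712), and Tlr7 kept a difference of -1.36. Setting values to background also ended the calls of Adh1 (0.195) and Lyz2 (0.0783), and 4 settings ended that of Cd79a, at adjusted p up to 0.677. Values near background, as for Tlr7 in pancreas, Tlr2, Tlr6 and Tlr9, limit how well a fold is measured.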
